A study of Mus musculus with 9 samples.

Results

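The livers of mice that had received both an overdose of acetaminophen (APAP) and adipose-derived mesenchymal stem cells (AMSCs) were compared with the livers of control mice, to see which transcripts remained changed, or were newly changed, despite the cell treatment. All 54532 genes of the deposited table were considered, and tests were run on the 9699 genes whose mean reached 1 FPKM (fragments per kilobase of gene, scaled to library size) over the 9 libraries. The NC group held 3 control livers. The AMSC group held 3 livers taken 6 h after 500 mg/kg APAP, and its mice had received an injection of AMSCs into a tail vein straight after the drug. The vehicle group held 3 livers with the same APAP dose and time but no cells. It was compared with the NC group and with the AMSC group, and these results are given beside the main comparison. All mice were male C57BL/6 animals, and the AMSCs had been grown from inguinal adipose tissue of mice of the same strain. The study fasted every animal through the night that preceded APAP, without saying whether this took in the NC mice, and if it did not, fasting and treatment cannot be told apart in comparisons with the NC group. The series includes no livers that received cells without APAP, so the drug and the cells cannot be told apart either where only the AMSC and NC groups are compared.

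An APAP overdose is converted by cytochrome P450 enzymes, Cyp2e1 foremost, to the reactive metabolite NAPQI, which depletes glutathione, binds to mitochondrial proteins and activates the stress kinase JNK. Hepatocytes around the central vein hold most of these enzymes and are damaged first. Stressed hepatocytes switch on immediate-early transcription factors and antioxidant genes, while cytokines from other liver cells drive the acute-phase response, in which hepatocytes secrete serum amyloid A and other plasma proteins.

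Reads on genes numbered 13418921 to 16210930 per library, recovered from the steps of the FPKM values, and a single read on a gene of 1 kb was worth 0.0578 to 0.0807 FPKM. The 8 hepatocyte markers were all detected in every library, with summed levels of 45705 to 48362 FPKM in the NC group and 55163 to 57408 FPKM in the AMSC group, and none of them was called. The summed markers of macrophages, monocytes, endothelial cells, stellate cells, cholangiocytes, erythrocytes, T and NK cells, B cells and of kidney and pancreas overlapped between the NC and AMSC groups, and no tested gene among them was called. NC replicate 3, whose title carries another date than the other 8 libraries, stood apart from the other NC libraries. Its macrophage markers summed to 261 FPKM, against 140.2 and 134 FPKM in NC replicates 1 and 2, its endothelial markers to 81.1 FPKM, against 39.6 and 48.6 FPKM, and its hemoglobin transcripts to 220.3 FPKM, against 101 and 105 FPKM. It was also the lowest control for many genes of lipid synthesis and of the endoplasmic reticulum, as given beside them.

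Despite AMSC treatment, the livers differed widely from controls at 6 h. With limma on log2(FPKM + 1), 2521 genes (26.0%) had a Benjamini-Hochberg adjusted p of at most 0.05. Of these, 583 also differed by 1 or more log2 units, up or down, and are called DEGs (6.01% of the genes tested), with 380 higher (3.92%) and 203 lower (2.09%) in the AMSC group. The 3 AMSC libraries lay all above or all below the 3 NC libraries for 43.5% of the genes tested, and for all of the 583 DEGs but 1. At the other end, the 95% confidence interval of the log2 fold change lay wholly within 1 log2 unit of 0 for 8139 genes (83.9%). For the other 977 genes that were no DEG, the interval reached 1 log2 unit. Fold changes are on the log2(FPKM + 1) scale throughout, which understates the change of genes with low levels. A 2-fold change of such a gene is less than 1 log2 unit on this scale, so an interval within 1 log2 unit does not exclude it.

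The balance of higher and lower DEGs depended on the scaling of the libraries. The denominators in the deposited FPKM were 1.08 to 1.16 times the reads on genes in the NC group and 0.969 to 0.985 times in the AMSC group. When the reads were scaled to the total on genes in their place, the median log2 fold change of all genes moved from 0.02 to -0.14, and 311 DEGs were higher and 343 lower. Changes are therefore given relative to the median gene of the deposited scale.

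**Figure D1:**
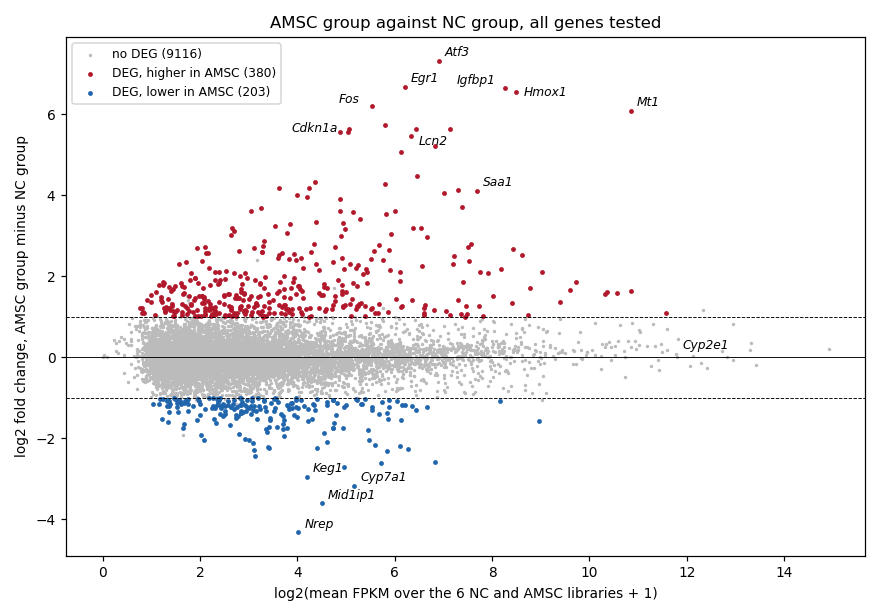
Log2 fold change of the AMSC group against the NC group (vertical axis) for the 9699 genes tested, against log2 of the mean FPKM of the 6 libraries plus 1 (horizontal axis). The 380 red points are DEGs that were higher and the 203 blue points are its lower DEGs. Dashed lines mark 1 log2 unit up and down. The largest rise is that of Atf3 at 7.32 and the largest fall that of Nrep at -4.32.

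Against the same NC livers, the vehicle group had 766 DEGs (7.90%), 494 higher (5.09%) and 272 lower (2.80%). Of the 583 DEGs of the AMSC group, 374 were DEGs of the vehicle group in the same direction (256 higher and 118 lower), and none was a DEG in the opposite direction. These comparisons share the NC libraries, so the count is a description. The remaining 209 DEGs of the AMSC group passed no call in the vehicle group, but for 176 of them the AMSC and vehicle groups were not called different from each other. The direct comparison of the AMSC group with the vehicle group called 72 genes higher (0.742%) and 118 lower (1.22%), and 38 of these differed from the NC group in the same direction as well (31 higher and 7 lower). These 38 genes are described below as differing from both groups. A further 25 DEGs of the AMSC group were closer to control than the vehicle group was, by a called difference between the treated groups. Conversely, 392 DEGs of the vehicle group were no DEG of the AMSC group, and for 192 of these the interval of AMSC against NC lay within 1 log2 unit of 0.

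The largest list median was that of the immediate-early transcription factors, which cells switch on within minutes of stress or growth signals. Of the 26 list members tested, 20 rose and none fell, with a median log2 fold change of 2.50 against 0.02 over all genes tested. Over all genes tested 3.92% rose and 2.09% fell, and the counts of every list below stand beside these shares. Atf3, a stress-induced partner of the AP-1 factors (chr1:191170296-191218039 on GRCm38), had the largest rise of all genes named here. It was at 0.362, 0.698 and 0.432 FPKM in NC replicates 1, 2 and 3 and at 256, 231 and 224 FPKM in AMSC replicates 2, 3 and 4, a log2 fold change of 7.32 (95% interval 7.04 to 7.59, adjusted p = 4.5e-08). Every AMSC library was thus far above every NC library.

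Fos, a subunit of AP-1, stood at 0.229, 0.0983 and 0.272 FPKM in the NC libraries and at 109, 57.3 and 107 FPKM in the AMSC libraries (log2 fold change 6.21, adjusted p = 2.5e-06). Its partner Jun, which lies opposite the antisense transcript Junos, went from 4.02, 5.35 and 3.83 to 309, 197 and 313 FPKM (5.64, adjusted p = 2.3e-06). AMSC replicate 3 was the lowest of the 3 treated livers for both genes, while still far above the controls. Egr1, a zinc finger factor induced by serum and stress, rose by 6.67 from 0.348, 0.387 and 0.466 FPKM to 173, 105 and 157 FPKM. The small Maf factor Maff rose by 5.74 and the antiproliferative Btg2 by 5.07. The Nur77 gene Nr4a1 was at 11.4, 9.19 and 29.7 FPKM in the AMSC libraries against 0.154, 0.198 and 0.315 FPKM in the NC libraries, and at 39.5, 101 and 75.9 FPKM in the vehicle libraries, a difference between the treated groups that was not called (log2 difference -2.12, adjusted p = 0.051).

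In the vehicle group 24 of the 26 genes were called higher than in NC, with a median of 3.23. Of the 26, 2 were called lower in the AMSC than in the vehicle group, beside 1.22% of all genes. These were Fosl1, another AP-1 subunit, and Ier3, an early survival gene. Both calls were lost without any single AMSC replicate, and that of Fosl1 also without vehicle replicate 2 or 3. Ier3 was at 0.636, 0.307 and 0.822 FPKM in NC, 9.29, 6.49 and 14.5 FPKM in vehicle and 3.12, 2.92 and 2.29 FPKM in AMSC livers. For Atf3 and Fos the 95% intervals of AMSC against vehicle were -0.76 to 0.50 and -1.08 to 0.56 log2 units, so a difference between the treated groups was not shown, and for Fos the interval reached a 2-fold difference.

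Since these genes rose together, the promoter windows of Atf3 and Fos are shown around the start that RefSeq gives (build GRCm38.p6), on the strand of the gene. The window of Atf3 is chr1:191183284-191183583 (minus strand) and belongs to a RefSeq start that lies 34706 bases inside the gene of the deposited table, and that of Fos is chr12:85473640-85473939 (plus strand).
Atf3: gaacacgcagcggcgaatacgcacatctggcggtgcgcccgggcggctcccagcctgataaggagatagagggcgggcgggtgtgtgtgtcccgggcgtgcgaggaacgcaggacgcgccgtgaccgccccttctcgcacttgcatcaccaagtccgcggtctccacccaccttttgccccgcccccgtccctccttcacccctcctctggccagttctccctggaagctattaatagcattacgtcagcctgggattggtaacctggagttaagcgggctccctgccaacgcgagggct
Fos: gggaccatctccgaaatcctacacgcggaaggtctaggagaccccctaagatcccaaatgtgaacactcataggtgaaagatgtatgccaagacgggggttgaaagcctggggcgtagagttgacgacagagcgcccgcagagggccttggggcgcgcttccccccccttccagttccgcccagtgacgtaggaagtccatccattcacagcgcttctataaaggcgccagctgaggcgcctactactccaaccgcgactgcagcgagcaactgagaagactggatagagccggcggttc
Neither window holds the cAMP response element TGACGTCA, the AP-1 element TGACTCA or the CArG box bound by serum response factor, searched on both strands, and so no letters are in capitals. Over the 32851 windows of the table, 1.79% held the first motif, 5.20% the second and 1.63% the third. The absence says only that these letters are not within these 300 bases.

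The phosphatases and inhibitors that MAP kinases induce to limit their own activity were partly higher. Of 14 tested, 7 rose, beside 3.92% of all genes, and none fell, with a median log2 fold change of 0.90. Dusp1, which dephosphorylates JNK and p38, was at 8.76, 16.9 and 22.1 FPKM in the NC libraries and at 98.1, 83.2 and 119.5 FPKM in the AMSC libraries (2.66, adjusted p = 0.00059). Dusp8, another JNK phosphatase, rose by 2.72. Dusp5, a nuclear phosphatase of ERK, rose only from 0.388, 0.351 and 0.329 to 2.09, 2.99 and 2.99 FPKM (1.43, adjusted p = 0.00026), while the vehicle livers reached 18.7, 80.8 and 58.01 FPKM. For Dusp4, Dusp5 and Dusp6 the AMSC group lay above control and below vehicle, with called differences of -1.70, -3.64 and -1.78 from the vehicle group (adjusted p = 0.0081, 0.0097 and 0.0021). Among the kinases themselves, Mapk8, which encodes JNK1, had a log2 fold change of 0.40 (interval 0.15 to 0.65) and Mapk9, which encodes JNK2, -0.03 (-0.28 to 0.22).

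Genes of growth arrest were higher. Of the 20 tested p53 targets and growth arrest genes, 9 rose, beside 3.92% of all genes. None fell, and the median was 0.44. Cdkn1a encodes the cell cycle inhibitor p21 and was at 0.186, 0.488 and 0.229 FPKM in the NC libraries and 67.2, 45.5 and 82.1 FPKM in the AMSC libraries (5.63, adjusted p = 2.3e-06). The vehicle livers overlapped the AMSC livers at 44.7, 83.3 and 60.9 FPKM. Mdm2, the ubiquitin ligase of p53, rose by 1.60 against control. Its log2 difference of -1.04 from the vehicle group (adjusted p = 0.042) was lost without any single AMSC replicate and without vehicle replicate 2 or 3. Gadd45g, a stress sensor of the Gadd45 family, was instead higher than in both groups, at 24.1, 16.1 and 10.2 FPKM in NC, 57.3, 117 and 124 FPKM in vehicle and 275, 259 and 353 FPKM in AMSC livers, and the libraries of the 3 groups did not overlap. Its call against the vehicle group was lost without any single AMSC replicate and without vehicle replicate 3. H2afx, the gene of the histone whose phosphorylation marks broken DNA, had a log2 fold change of -0.08 (-0.40 to 0.24). None of the 13 cell cycle genes tested was a DEG, and all 13 had intervals within 1 log2 unit of 0. Among 18 genes of the Bcl2 family, caspases and necroptosis, 4 rose and 1 fell, and the risers included the pro-apoptotic Bbc3 (1.53) and Bcl2l11 (1.11) as well as the anti-apoptotic Bcl2l1 (1.48). Without NC replicate 1 or 2 or AMSC replicate 3 or 4, none fell.

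The integrated stress response, in which the factor ATF4 raises amino acid and redox genes, was the most complete of the stress lists. Of 20 members tested, 17 rose and none fell, and the median log2 fold change was 2.28 in the AMSC group and 1.36 in the vehicle group. Chac1, which degrades glutathione, went from 0.439, 0.247 and 0.355 FPKM in the NC libraries to 65.7, 51.8 and 71.8 FPKM in the AMSC libraries (5.56, adjusted p = 3.5e-07). Ddit3, which encodes the factor CHOP and overlaps Mars and Gm4189 on the other strand, was at 4.13, 4.59 and 4.68 and 118, 89.5 and 109 FPKM (4.27). The secreted stress hormones Gdf15 and Fgf21 rose by 5.64 and 4.18, and AMSC replicate 3 was the lowest treated liver for both.

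A pair of members differed from the vehicle group too. Ddit4, an inhibitor of the growth kinase mTORC1, was at 5.43, 7.35 and 4.37 FPKM in NC, 7.60, 8.14 and 10.6 FPKM in vehicle and 44.6, 61.1 and 50.2 FPKM in AMSC livers, 2.99 above control (adjusted p = 3.0e-05) and 2.43 above vehicle (adjusted p = 0.0012). Mthfd2, a mitochondrial enzyme of the folate cycle, was 2.38 above control and 1.11 above vehicle. The call of Mthfd2 against vehicle was lost when any single AMSC or vehicle replicate was left out, and that of Ddit4 was not.

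Antioxidant and metal-binding genes rose in part. Of 35 tested targets of Nrf2 and genes of glutathione synthesis, 9 rose and none fell, with a median of 0.52. Hmox1, the haem-degrading enzyme, was at 4.55, 4.56 and 9.92 FPKM in the NC libraries and 795, 345 and 1003 FPKM in the AMSC libraries (6.55, adjusted p = 3.4e-05), with NC replicate 3 the highest control and AMSC replicate 3 the lowest treated liver. Gclc, the catalytic subunit of the rate-limiting enzyme of glutathione synthesis, rose from 53.01, 41.99 and 32.5 to 196, 366 and 193 FPKM (2.50, adjusted p = 0.00053), and there AMSC replicate 3 was the highest. Sulfiredoxin (Srxn1) rose by 3.20 and the autophagy receptor Sqstm1 by 2.68. Metallothionein 1 (Mt1), which binds zinc and is also an acute-phase gene, rose from 35.5, 55.6 and 71.9 to 4311, 3612 and 2964 FPKM (6.08, adjusted p = 3.3e-06). Its neighbour Mt2 rose by 5.55, and reads could be shared between these similar genes.

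**Figure D2:**
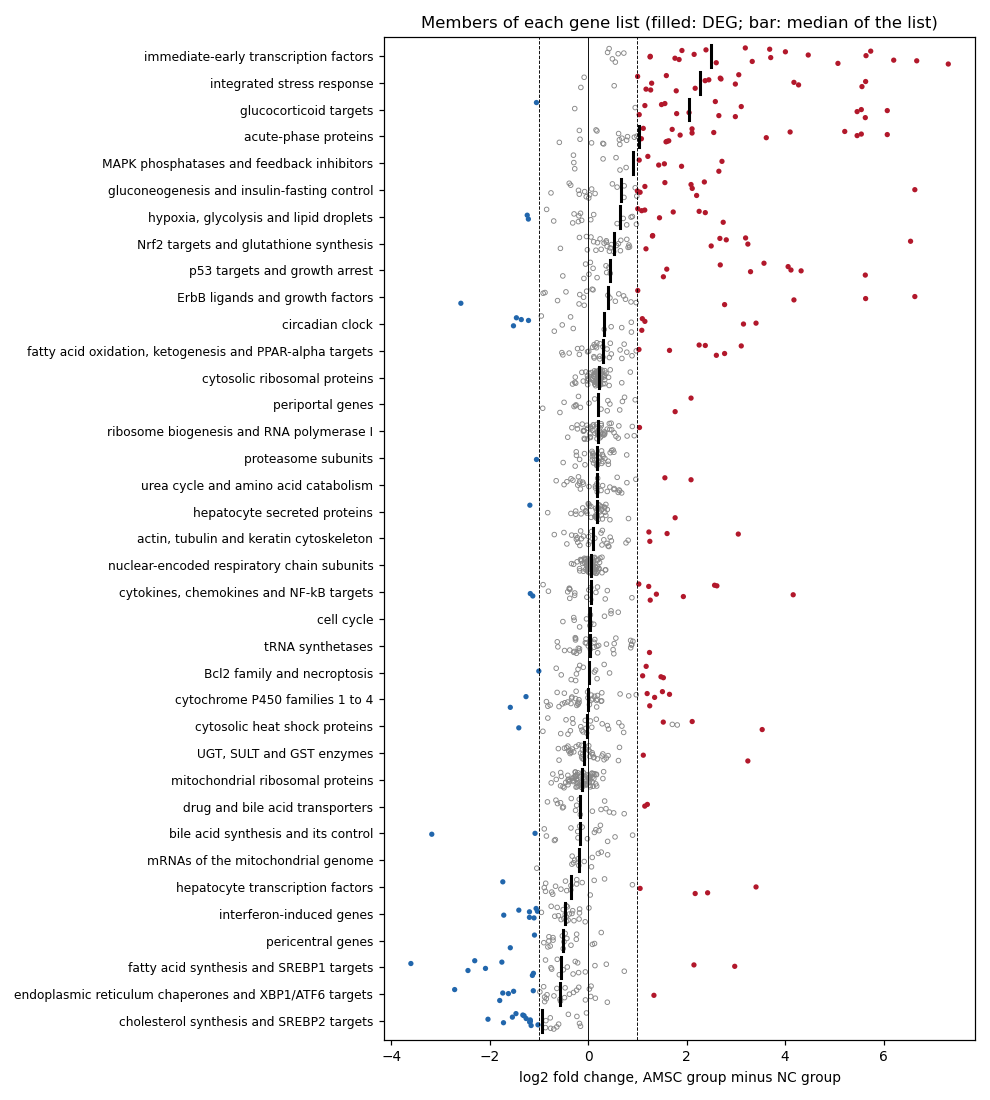
Each row is 1 of the 37 gene lists and each point a tested member, placed by its log2 fold change of the AMSC group against the NC group (horizontal axis). Filled points are DEGs, red for higher and blue for lower, and the black bar is the median of the list. Medians run from 2.50 for the immediate-early factors to -0.94 for cholesterol synthesis.

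Acute-phase proteins formed the clearest group that differed from both other groups. Of 32 tested, 16 rose against control and none fell, with a median log2 fold change of 1.04 beside 0.41 in the vehicle group, where 5 rose. Against the vehicle group directly, 11 were higher in the AMSC group, beside 0.742% of all genes. Of the 38 genes, out of 9699 tested, that differed from both groups, 10 were on this list. Within this list, the serum amyloid A genes Saa2 and Saa1 had the largest differences between the treated groups. Saa2 (chr7:46751790-46754313) was at 2.71, 3.70 and 4.41 FPKM in the NC libraries, 3.02, 4.81 and 2.63 FPKM in the vehicle libraries and 167, 429 and 65.3 FPKM in the AMSC libraries. It was 5.21 above control (3.91 to 6.52, adjusted p = 0.00054) and 5.26 above vehicle (adjusted p = 0.0064) on the log2 scale, and the vehicle livers overlapped the controls. Saa1, its neighbour (chr7:46740497-46742980), was at 19.9, 13.9 and 21.3, 13.3, 23.4 and 19.2 and 317, 699 and 158 FPKM in the same order. The sequences of Saa1 and Saa2 are so alike that reads could be shared between them.

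Lcn2, the iron-siderophore binding lipocalin 2 (chr2:32384633-32388252), was at 2.54, 2.03 and 2.35 FPKM in NC, 4.43, 15.1 and 9.67 FPKM in vehicle and 145, 236 and 87.8 FPKM in AMSC livers (5.46 above control, adjusted p = 2.0e-05). Il1r1, the receptor of interleukin 1, was at 4.12, 3.52 and 2.47 FPKM in the NC libraries and 45.1, 68.8 and 45.1 FPKM in the AMSC libraries, with the vehicle group between them at 8.82, 17.2 and 10.4 FPKM. Orosomucoids, which bind drugs in plasma, rose as well, with Orm3 at 2.55 and Orm2 at 2.11 above control, and these near-identical genes could share reads. Serpina3n, a protease inhibitor, rose from 183, 174 and 211 to 761, 1211 and 593 FPKM (2.11, adjusted p = 0.00068), and Lrg1 from 319.8, 351 and 417 to 1235, 1516 and 1225 FPKM (1.87, adjusted p = 0.00011). For Saa1, Saa2, Lcn2, Il1r1 and Serpina3n, AMSC replicate 3 was the highest of the treated livers. The fibrinogen chains Fga, Fgb and Fgg were 1.58, 1.60 and 1.64 above control, and their differences of 0.64, 0.72 and 0.61 from the vehicle group were not called. Against the vehicle group, the call of Lrg1 was lost without any single AMSC replicate and without vehicle replicate 3, and that of Serpina3n without AMSC replicate 2 and without vehicle replicate 3. With all genes above 0 tested, the calls of Saa1, Saa2, Lcn2, Il1r1, Orm2, Orm3, Lrg1 and Serpina3n against the vehicle group were all lost.

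The summed level of neutrophil markers was 2.49 to 4.43 FPKM in the NC group and 92.6 to 242 FPKM in the AMSC group, most of which was Lcn2, a gene on both lists. Without Lcn2 the neutrophil markers summed to 0.461 to 2.09 FPKM in the NC libraries, 7.89 to 36.0 FPKM in the vehicle libraries and 4.86 to 6.27 FPKM in the AMSC libraries. The AMSC libraries were thus above all NC libraries and below all vehicle libraries for this sum, although not for every single marker, while Saa1 and Saa2 in the vehicle libraries overlapped the controls. Of the 4 neutrophil markers tested, Lcn2, S100a9 and Retnlg rose and none fell. S100a9, a calcium-binding protein of neutrophil granules and cytosol, was at 0, 0 and 0.668 FPKM in NC, 18.3, 3.71 and 7.41 FPKM in vehicle and 2.53, 2.95 and 1.66 FPKM in AMSC livers (1.49, adjusted p = 0.0030). Retnlg was at 0, 0 and 0.392, 4.02, 1.50 and 3.14 and 1.59, 1.43 and 1.12 FPKM in the same order (1.09, adjusted p = 0.0025), so AMSC replicate 2 was above vehicle replicate 2, and its call was lost with quantile normalization. Ly6g was above 0 in 1 AMSC and 1 vehicle library, at 0.0706 and 0.0857 FPKM, and in no NC library, and Camp was at 0 in all 9 libraries. The part of these markers in the acute-phase result was not tested. In bulk RNA, fewer cells of a type and less RNA per cell cannot be told apart. Markers of mesenchymal and adipose stromal cells summed to 71.4 to 87.4 FPKM in the NC group and 72.3 to 78.6 FPKM in the AMSC group, a sum carried mostly by Itgb1, Dpp4 and Eng, which other cells also express. Of 7 such genes tested only Vcam1, an adhesion molecule also of inflamed endothelium, rose (1.03, adjusted p = 0.0045). This call was lost without NC replicate 1 or 2 or AMSC replicate 2. Vcam1 was at 3.54, 2.26 and 2.39 FPKM in AMSC livers and at 5.51, 3.41 and 4.55 FPKM in vehicle livers, which received no cells. Dpt, a stromal extracellular matrix gene, was at 1.15, 1.41 and 2.29 and 2.56, 1.78 and 1.58 FPKM, and Prrx1 and Pi16 did not reach 0.1 FPKM in any of these libraries. Among low genes that were not tested, Pdgfra was at 0.245, 0.427 and 0.638 FPKM in NC and 1.44, 1.03 and 0.816 FPKM in AMSC livers, and Nt5e was at 0.641, 0.578 and 0.750 FPKM and 1.003, 0.760 and 0.897 FPKM. Thy1 was at 0.240, 0.212 and 0.272 FPKM in NC and 0.0420, 0 and 0.244 FPKM in AMSC livers. Thy1, Cd44 and Postn, none of them tested, overlapped between these groups. The stellate cell marker Pdgfrb was at 0.799, 1.47 and 1.16 and 2.01, 1.91 and 1.66 FPKM (0.43, adjusted p = 0.057). For Pdgfra, Nt5e and Pdgfrb every AMSC library was above every NC library. Dpp4 and Eng went the other way, with every AMSC library below every NC library. Such a separation, in either direction, held for 43.5% of the genes tested, which did not include Pdgfra and Nt5e. In vehicle livers Pdgfra was at 1.67, 0.918 and 0.935, Nt5e at 0.971, 0.216 and 0.528 and Pdgfrb at 1.33, 0.943 and 1.24 FPKM.

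**Figure D3:**
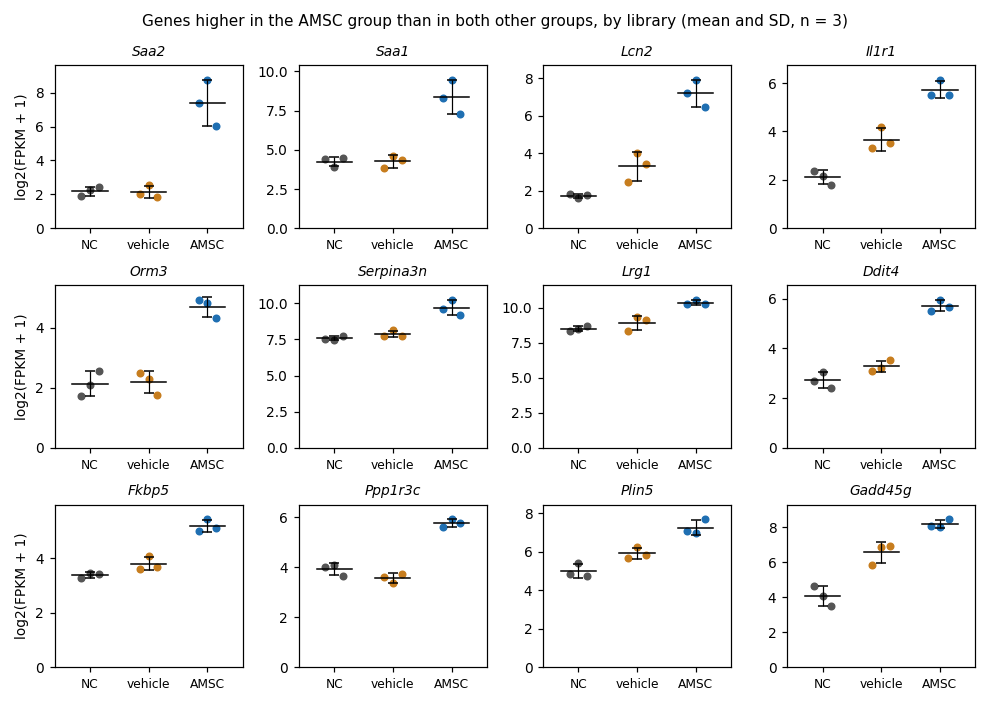
Log2(FPKM + 1) in every library (vertical axes) for 12 genes called higher in the AMSC group than in both the NC and the vehicle group. Points are libraries, horizontal bars the mean and whiskers the SD of 3 libraries per group. For Saa1, Saa2, Orm3 and Ppp1r3c the vehicle libraries overlap the NC libraries. For Gadd45g, Il1r1, Lcn2, Ddit4, Fkbp5 and Plin5 they lie between the other groups.

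Of the 28 tested cytokines, chemokines and targets of NF-kB, 8 rose and 2 fell. The neutrophil attractant Cxcl1 rose from 1.28, 0.833 and 0.837 to 40.3, 35.4 and 28.5 FPKM (4.17, adjusted p = 2.3e-06), a level near that of vehicle replicates 2 and 3 (6.04, 43.7 and 38.9 FPKM in the vehicle group). Socs3, the feedback inhibitor of interleukin 6 signalling, rose by 2.57 and Nfkbiz, a nuclear cofactor of NF-kB, by 2.62. Bcl3, another such cofactor, was higher than in both groups (1.26 above control and 1.73 above vehicle), and so was the interleukin 6 receptor gene Il6ra (1.20 and 1.01), although the latter call was lost without AMSC replicate 3 or 4 and without vehicle replicate 1 or 3. Cd14, a receptor of bacterial lipopolysaccharide, was at 1.37, 1.03 and 1.37 FPKM in NC and 12.5, 4.65 and 7.32 FPKM in AMSC livers but at 54.3, 72.5 and 125 FPKM in vehicle livers, -3.22 on the log2 scale for AMSC against vehicle (adjusted p = 0.0081). The chemokine gene Cxcl12 fell by 1.18 on the log2 scale, and the other fall, of the cytokine feedback gene Cish, was lost without NC replicate 1 or 2 or AMSC replicate 4. Among 25 ErbB ligands and growth factors, 5 rose and 1 fell, and Igfbp1, a fasting and stress-induced binder of insulin-like growth factors, rose from 2.95, 3.37 and 10.97 to 809, 412 and 607 FPKM (6.64, adjusted p = 3.6e-05). The fall was of Angptl8, an insulin-induced inhibitor of lipoprotein lipase (-2.59), with 2 falls without AMSC replicate 3 and 3 falls with scaling to total reads. The count of rises was 9 with a pseudocount of 0.1 and 10 with voom.

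Interferon-induced genes were lower than in control livers as a list. Of 30 tested, 29 had a log2 fold change below 0 and 17 passed the adjusted p downward, beside 11.9% of all genes, and 7 were called DEGs, all of them lower, beside 2.09%. The median was -0.48 in the AMSC group and -0.02 in the vehicle group. Igtp, an interferon-inducible GTPase that overlaps Irgm2 on the same strand, was at 16.5, 15.4 and 20.00 FPKM in the NC libraries and 4.05, 5.06 and 4.57 FPKM in the AMSC libraries (-1.71, adjusted p = 8.7e-05). The antiviral gene Oasl1 fell by 1.41 and the RNA-binding Ifit1 by 1.19 on the log2 scale. For 5 members the AMSC group was called lower than the vehicle group, beside 1.22% of all genes. Ifit3 was at 4.60, 5.10 and 6.73 FPKM in NC, 9.997, 12.02 and 16.7 FPKM in vehicle and 3.93, 2.29 and 2.97 FPKM in AMSC livers, and Gbp3 at 0.973, 1.22 and 1.80, 2.79, 3.31 and 3.28 and 0.791, 0.848 and 0.591 FPKM, with neither called against control. Ifit2 had a difference of -1.81 from the vehicle group (adjusted p = 0.0012). Macrophage markers summed to 134 to 261 FPKM in the NC group, with NC replicate 3 the highest, and 118 to 188 FPKM in the AMSC group, and their part in the result was not tested. The count of 7 of 30 was 3 of 15 among genes whose mean reached 5 FPKM and 12 of 30 with voom on the recovered reads.

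Most targets of the glucocorticoid receptor rose. Of 17 tested, 14 rose and 1 fell, with a median of 2.05 in the AMSC group and 1.50 in the vehicle group. Several of them are stress genes already named (Lcn2, Mt1, Mt2, Cdkn1a, Dusp1 and Ddit4). Fkbp5, a chaperone of the receptor, was at 8.62, 9.98 and 9.67 FPKM in NC, 11.3, 15.7 and 11.9 FPKM in vehicle and 31.1, 41.9 and 33.3 FPKM in AMSC livers, 1.80 above control (adjusted p = 8.0e-05) and 1.38 above vehicle (adjusted p = 0.0081). The transcription factor Zbtb16 rose from 0.318, 0.285 and 0.220 to 5.61, 6.98 and 7.43 FPKM (2.58), and Klf9 by 2.05. Sgk1, a kinase of ion transport, rose by 1.49 (adjusted p = 0.00074). Tsc22d3, which encodes the glucocorticoid-induced leucine zipper, went the other way, from 35.9, 33.02 and 35.3 FPKM in the NC libraries to 15.1, 18.4 and 15.4 FPKM in the AMSC libraries (-1.05, adjusted p = 0.00049), a call that was lost without AMSC replicate 2 and left 0 falls.

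Genes of fasting, fat burning and fat storage rose in part. Of 26 genes of gluconeogenesis and its hormonal control, 9 rose and none fell, among them the insulin receptor substrate Irs2 (2.11), Foxo3 (2.20) and the serine dehydratase Sds (2.09). Among 37 genes of fatty acid oxidation and targets of PPAR-alpha, 7 rose and none fell, and 24 had intervals within 1 log2 unit of 0. Pdk4, the kinase that shuts off pyruvate oxidation, rose from 0.393, 0.280 and 0.248 to 6.90, 11.2 and 13.9 FPKM (3.11, adjusted p = 5.6e-05) and stayed below the vehicle libraries at 39.1, 55.5 and 28.4 FPKM. Of 26 genes of hypoxia, glycolysis and lipid droplets, 8 rose and 2 fell, or 1 fell without NC replicate 2. The droplet coat genes differed among themselves. Plin2 was at 56.2, 53.3 and 61.4 FPKM in NC and 251, 262 and 411 FPKM in AMSC livers (2.38) and at 267, 475 and 268 FPKM in vehicle livers, whereas Plin5, which tethers droplets to mitochondria, was higher in the AMSC livers than in both groups (27.8, 41.3 and 25.6 FPKM in NC, 50.2, 74.5 and 56.9 FPKM in vehicle and 136, 124 and 204 FPKM in AMSC). Plin4 was 1.73 above control and 1.17 above vehicle. The calls of Plin4 and Plin5 against vehicle were lost without any single AMSC replicate and without vehicle replicate 3. Hilpda, an inhibitor of droplet breakdown, was at 52.7, 212 and 189 FPKM in the vehicle group but only 4.34, 2.93 and 8.63 FPKM in the AMSC group and 0.815, 1.21 and 1.47 FPKM in the NC group. The glycogen-targeting subunit Ppp1r3c was at 15.2, 16.2 and 11.7, 11.1, 9.29 and 12.4 and 47.7, 59.8 and 54.3 FPKM in NC, vehicle and AMSC livers, while its relative Ppp1r3b fell from 79.1, 99.5 and 58.1 FPKM in NC to 14.6, 17.1 and 17.8 FPKM in AMSC livers (-2.16, adjusted p = 0.00019).

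Many genes of lipid synthesis fell. Of 24 genes of fatty acid synthesis and targets of SREBP1, 7 fell and 2 rose, with a median of -0.54. Mid1ip1, which activates acetyl-CoA carboxylase and overlaps Gm10489, was at 38.6, 46.8 and 37.3 FPKM in the NC libraries and 2.90, 2.49 and 1.97 FPKM in the AMSC libraries (-3.60, adjusted p = 2.5e-06). The elongase Elovl6 fell from 12.9, 11.8 and 16.2 to 1.41, 2.46 and 1.30 FPKM (-2.44), the fatty acid synthase Fasn from 38.2, 48.8 and 28.5 to 7.89, 6.20 and 10.8 FPKM (-2.09, adjusted p = 0.00057), and the gene of their regulator SREBP1, Srebf1, which overlaps Rai1 on the other strand, fell by 2.30 on the log2 scale. Acly, which makes cytosolic acetyl-CoA, was at 37.6, 36.2 and 24.02 FPKM in NC, 27.8, 35.8 and 31.02 FPKM in vehicle and 13.00, 13.3 and 16.8 FPKM in AMSC livers, lower than in both groups (-1.11 and -1.09). The call of Acly against control was lost without NC replicate 1, and that against vehicle without AMSC replicate 2 or 3 and without vehicle replicate 2. NC replicate 3 was the lowest control for Mid1ip1, Fasn and Acly. The 2 risers were Insig2 (2.98), which holds SREBP in the endoplasmic reticulum, and the phosphatidate phosphatase Lpin1 (2.15).

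Cholesterol synthesis genes and other SREBP2 targets were lower as a list, with all 24 tested members below 0, 18 of them past the adjusted p and 12 called, beside 2.09% of all genes. The median log2 fold change was -0.94 in the AMSC group and -0.62 in the vehicle group. Mvd, the mevalonate decarboxylase, was at 14.5, 16.2 and 5.75 FPKM in the NC libraries and 2.64, 1.66 and 1.72 FPKM in the AMSC libraries (-2.03, adjusted p = 0.0035), and the isomerase Idi1 at 19.9, 19.4 and 7.61 and 3.99, 4.30 and 2.89 FPKM (-1.72, adjusted p = 0.0068). NC replicate 3 was the lowest control for both, though above every AMSC liver. Stard4, which carries cholesterol between membranes, was at 26.4, 25.3 and 16.2 FPKM in the NC libraries and 8.75, 5.89 and 7.73 FPKM in the AMSC libraries (-1.47, adjusted p = 0.0017). The number of called members was 16 without NC replicate 3, 6 without NC replicate 1, 8 without NC replicate 2 and 8 without AMSC replicate 4. With all genes above 0 tested, 2 members were called.

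Bile acid synthesis showed a single large fall. Cyp7a1, its rate-limiting enzyme, was at 73.2, 61.9 and 51.5 FPKM in the NC libraries and 3.83, 15.1 and 3.25 FPKM in the AMSC libraries (-3.18, interval -4.22 to -2.14, adjusted p = 0.0020), with NC replicate 3 the lowest control and AMSC replicate 3 the highest of the treated livers. The vehicle livers were at 1.34, 0.251 and 1.80 FPKM, and the difference between the treated groups was not called (1.78, adjusted p = 0.11). Of the 19 genes of bile acid synthesis and its control, 2 fell, none rose and 13 had intervals within 1 log2 unit of 0. Cyp8b1, which sets the ratio of bile acid species, had a log2 fold change of 0.13 (-0.20 to 0.45). The other fall was of Cyp7b1, an oxysterol hydroxylase (-1.08), whose call was lost without NC replicate 1, and without NC replicate 3, AMSC replicate 2 or AMSC replicate 4 only 1 fall was called. Among 20 drug and bile acid transporters, 2 rose and none fell, beside 3.92% and 2.09% of all genes. The risers were the carnitine transporter Slc22a5 (1.20) and the bile acid transporter Slc10a2 (1.15), and 1 rose without AMSC replicate 3.

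**Figure D4:**
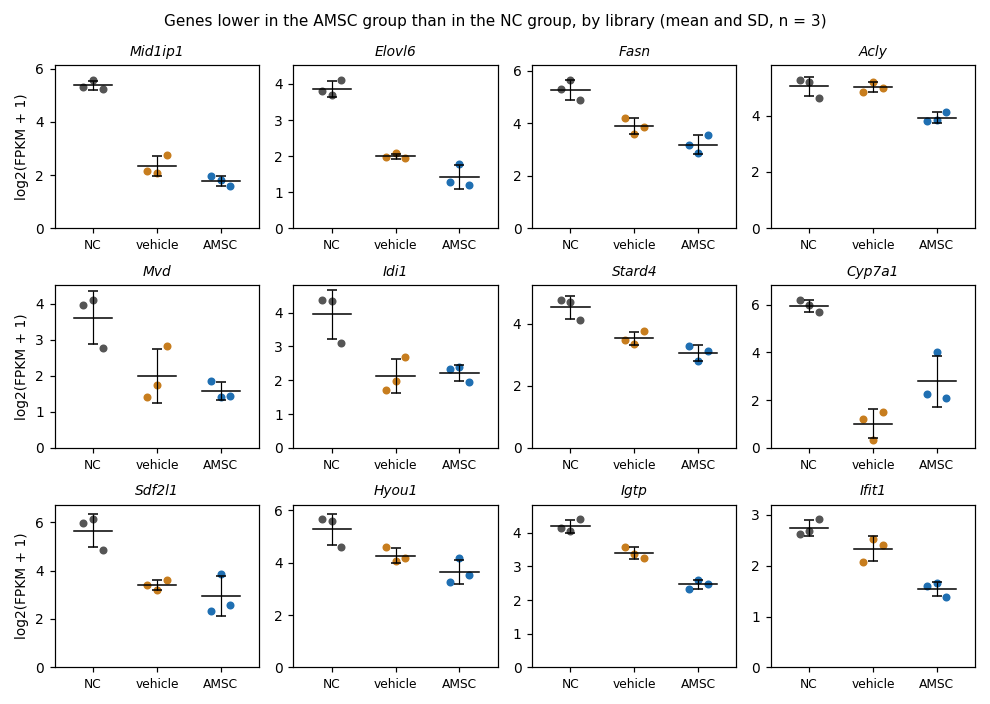
Log2(FPKM + 1) in every library (vertical axes) for 12 genes called lower in AMSC than in NC livers, from fatty acid and cholesterol synthesis, bile acid synthesis, the endoplasmic reticulum and the interferon response. Points are libraries, horizontal bars the mean and whiskers the SD of 3 libraries per group. NC replicate 3, the right-hand NC point, is the lowest control for all but Elovl6, Igtp and Ifit1.

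Chaperones of the endoplasmic reticulum were lower, in contrast to the integrated stress response. Of 29 chaperones and targets of XBP1 and ATF6, 6 fell, beside 2.09% of all genes, and 1 rose, 17 passed the adjusted p downward, beside 11.9%, and the median was -0.57 in the AMSC group and -0.42 in the vehicle group. Sdf2l1 was at 61.6, 68.2 and 28.00 FPKM in the NC libraries and 4.03, 13.7 and 5.04 FPKM in the AMSC libraries (-2.71, adjusted p = 0.0036). Hyou1, a large chaperone of the Hsp70 family, fell from 49.6, 46.96 and 23.1 to 8.64, 17.1 and 10.6 FPKM (-1.62, adjusted p = 0.0082), and the disulfide isomerase Pdia4 fell by 1.51. For these 3 genes NC replicate 3 was the lowest control and AMSC replicate 3 the highest treated liver, and the groups did not overlap. Herpud1, which is also an ATF4 target, was the riser (1.34). The count of falls was 12 with scaling to total reads and 3 with all genes above 0 tested.

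Of 29 cytosolic heat shock genes, 3 rose and 1 fell, or 3 fell without AMSC replicate 3. Dnajb1 rose from 9.58, 8.36 and 5.91 to 96.9, 128 and 83.4 FPKM (3.54, adjusted p = 2.3e-05) and Hspb8 by 2.11. Hspa1b, an inducible Hsp70, was at 6.65, 8.83 and 3.17 FPKM in the NC libraries and 10.4, 119 and 7.07 FPKM in the AMSC libraries, so AMSC replicate 3 alone was far above the rest (log2 fold change 1.71, interval -0.37 to 3.79, adjusted p = 0.20). Its near-identical neighbour Hspa1a showed the same library apart, at 1.23, 22.4 and 0.942 FPKM. Fkbp4, a cochaperone of steroid receptors, fell from 77.8, 81.1 and 60.95 to 25.1, 25.1 and 30.4 FPKM (-1.41, adjusted p = 0.00036).

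Pericentral genes were lower than in control as a list, and by less than in the vehicle group. Of 20 tested, 2 fell in the AMSC group and 13 in the vehicle group, with medians of -0.52 and -1.54, and 6 were called higher in the AMSC than in the vehicle group, beside 0.742% of all genes. Cyp2e1, the main enzyme of APAP activation, was at 3605, 3247 and 3373 FPKM in the NC libraries and 3848, 3521 and 3488 FPKM in the AMSC libraries, and the groups overlapped (log2 fold change 0.09, interval -0.20 to 0.37). The vehicle livers were at 1541, 294 and 705 FPKM, and the AMSC group was 2.40 above them (adjusted p = 0.047). This call was lost without any single AMSC replicate and without vehicle replicate 3. It was also lost with a pseudocount of 0.1, with quantile normalization, with all genes above 0 tested and among genes whose mean reached 5 FPKM. The same leave-outs, and testing all genes above 0, ended the calls of Oat and Cyp2a5 against vehicle. Against control, the intervals were -0.89 to 0.03 for Oat, an ornithine enzyme, and -1.45 to -0.19 for Cyp2a5. Glutamine synthetase (Glul) was at 270.0, 245 and 245 FPKM in NC, 45.5, 20.7 and 29.4 FPKM in vehicle and 112, 138 and 160.3 FPKM in AMSC livers, with a log2 difference of -0.90 from control (adjusted p = 0.0034) and 2.12 from vehicle (adjusted p = 0.0100). It was 1 of the 10 pericentral genes past the adjusted p downward, beside 11.9% of all genes, and the 3 groups did not overlap. Cyp1a2, which also activates APAP, fell from 947, 553 and 764 to 222, 243 and 276 FPKM (-1.58, adjusted p = 0.0011) and did not differ by a called amount from the vehicle libraries at 576, 173 and 378 FPKM (-0.45, interval -1.34 to 0.45). The other fall was of the glutamate transporter Slc1a2 (-1.09), and without NC replicate 1 or AMSC replicate 2 only 1 fall was called. The count of 2 falls was 4 or 5 with a pseudocount of 0.1, quantile normalization, voom or scaling to total reads.

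**Figure D5:**
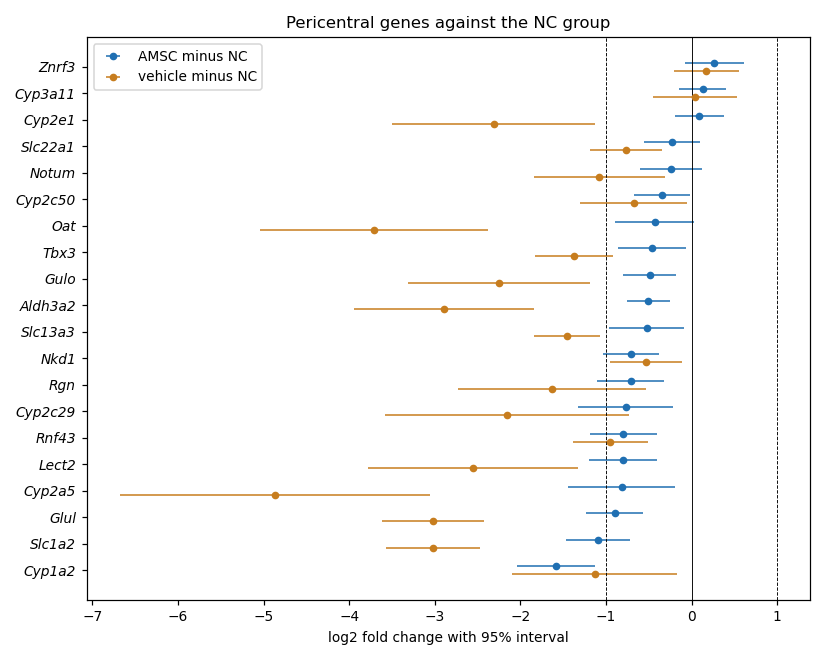
Log2 fold change with its 95% confidence interval (horizontal axis) of the 20 tested pericentral genes, for the AMSC group (blue) and the vehicle group (orange) against the same NC libraries. The blue intervals of Cyp2e1 and Cyp3a11 include 0, and that of Cyp1a2 lies wholly below -1.

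Of 43 genes of cytochrome P450 families 1 to 4, 5 rose and 2 fell, with a median of -0.01. This balance depended on the scaling, since 5 fell with quantile normalization and 4 with scaling to total reads, each with a median of -0.20. The risers included the fatty acid hydroxylase gene Cyp4a14 (319, 591 and 244 FPKM in NC, 1159, 1483 and 836 FPKM in AMSC) and Cyp4f17 (1.51). Por, the electron donor of these enzymes, which overlaps Gm16061 and Gm43091 on the other strand, was at 135, 133 and 181 FPKM in NC, 135, 158 and 145 FPKM in vehicle and 278, 299 and 320.0 FPKM in AMSC livers, 1.01 above control and 1.03 above vehicle. Its call against control was lost without NC replicate 1 or 2 or AMSC replicate 4, and that against vehicle without AMSC replicate 4 or vehicle replicate 1. Among 40 conjugating enzymes of the UGT, SULT and GST families, 2 rose (5%), a share near the 3.92% of all genes. Of the 40, 38 had intervals within 1 log2 unit of 0, beside 83.9% of all genes. Gsta1 rose by 3.24 from 1.13, 1.09 and 1.22 FPKM to 13.4, 28.6 and 18.6 FPKM. Without NC replicate 1 only 1 of the 40 rose. Of 20 periportal genes, 2 rose (Sds and Apoa4), beside 3.92% of all genes, and none fell. Without NC replicate 1 or AMSC replicate 3, 1 of the periportal genes fell.

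For most lists of housekeeping machinery, the share of genes with intervals within 1 log2 unit of 0 was above the 83.9% of all genes. Intervals lay within 1 log2 unit of 0 for 75 of 78 cytosolic ribosomal proteins, 73 of 76 mitochondrial ribosomal proteins, 78 of 79 nuclear-encoded respiratory chain subunits, 35 of 37 proteasome subunits and 51 of 55 genes of ribosome biogenesis. The share was below that of all genes for the tRNA synthetases, with 29 of 36, and for the urea cycle and amino acid catabolism, with 28 of 34. For the mitochondrial ribosomal proteins the median was -0.12 in the AMSC group and -0.27 in the vehicle group, and 10 of them passed the adjusted p downward, a share near the 11.9% of all genes. None of the 13 mRNAs of the mitochondrial genome was called, and the interval was within 1 log2 unit for 8 of them, a share below that of all genes. Without NC replicate 2, 1 was lower, as with quantile normalization, voom, protein-coding genes alone or scaling to total reads. With a block for the replicate number, 1 was higher. The tRNA synthetase gene Cars, which charges tRNA with cysteine, rose by 1.23 (adjusted p = 0.00014), with a further rise without AMSC replicate 3. The other calls in these lists were a fall of the immunoproteasome gene Psmb9 (-1.06), lost without NC replicate 2 or AMSC replicate 3, a rise of Rcl1 of ribosome biogenesis (1.04), lost without NC replicate 2 or AMSC replicate 2 or 4, and rises of Tat and Sds of amino acid catabolism (1.56 and 2.09). Of the cytosolic ribosomal proteins, 1 rose without AMSC replicate 2. Of 42 secreted hepatocyte proteins, 1 rose and 1 fell, 4.76% in all beside 6.01% of all genes. The fall was Serpina6, the carrier of glucocorticoids in plasma, from 121, 99.03 and 73.2 to 47.4, 35.1 and 43.1 FPKM (-1.18), and the rise was the apolipoprotein gene Apoa4 (1.77). Of 32 genes of the cytoskeleton, 4 rose, led by the tubulin gene Tubb2a (3.05).

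Among 23 hepatocyte transcription factors, 4 rose and 1 fell, but 3 rose and 4 fell with scaling to total reads. Cebpb and Cebpd, which drive acute-phase genes, rose by 2.17 and 2.43, and Onecut1 fell from 4.30, 5.95 and 1.48 to 0.107, 0.580 and 0.421 FPKM (-1.73, adjusted p = 0.0084), with NC replicate 3 the lowest control. Without NC replicate 1 or 3, 2 of them fell. Of 19 clock genes, 5 rose and 4 fell. The repressors Nr1d1 (REV-ERB alpha, which overlaps Thra on the other strand) and Nfil3 rose from 6.17, 5.83 and 5.19 to 73.3, 60.6 and 78.6 FPKM and from 5.59, 5.94 and 4.62 to 52.7, 61.3 and 53.3 FPKM (3.41 and 3.16). Dbp, an output factor of the clock, fell from 30.7, 25.7 and 28.1 to 12.2, 6.84 and 9.14 FPKM (-1.52, adjusted p = 0.00093), and the clock repressor Per3 fell by 1.36 on the log2 scale. The hour of sampling of each group is not given in the sources used here. Without NC replicate 3, 2 clock genes rose and 5 fell.

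Among the genes with the largest falls were several that are less studied in liver. Nrep, a regulator of TGF-beta signalling, was at 22.6, 34.4 and 32.6 FPKM in the NC libraries and 0.576, 0.520 and 0.477 FPKM in the AMSC libraries, the largest fall of all (-4.32, interval -4.68 to -3.95, adjusted p = 2.3e-06), and the vehicle livers were at 0.920, 0.867 and 1.04 FPKM. Keg1, an acyltransferase relative that overlaps Gm15962, was lower than in both groups, at 26.5, 29.1 and 38.2 FPKM in NC, 10.8, 6.48 and 15.7 FPKM in vehicle and 3.53, 1.997 and 4.24 FPKM in AMSC livers, though its call against vehicle was lost without any single AMSC replicate and without vehicle replicate 1 or 3. The transcription factor Hes6 fell by 2.62 on the log2 scale and the retinoic acid hydroxylase Cyp26a1 fell by 2.23. The number of genes that differed from both groups was 38 in the fit given here, 18 to 25 without a single AMSC replicate, 34 or 35 without an NC replicate and 22 to 43 without a vehicle replicate, with the lowest values without AMSC replicate 3 and without vehicle replicate 3.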

How the data were processed

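RNA of 9 mouse livers had been sequenced from libraries of the SMARTer mRNA-Seq kit, and the authors deposited 1 table of FPKM per gene and library, whose processing notes name GRCm38 and mm10. The aligner, the counter, its strand setting and the FPKM denominator are not given in the sources used here. No library was left out. A few list members are not reported here. Reads per gene were recovered from the steps of the values (all values whole within a tolerance of 0.1). Genes whose mean reached 1 FPKM were fitted with limma 3.58.1 in R 4.3.3 on log2(FPKM + 1), with a variance trend, separately for each pair of groups. DEGs passed a Benjamini-Hochberg adjusted p of 0.05 and differed by 1 or more log2 units. Intervals are 95% confidence intervals. The p-values set the difference between groups against the spread between livers of a group, estimated in part across genes. In the NC group this spread includes NC replicate 3, whose title carries another date.

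Named genes were the 15 largest rises and 15 largest falls with a gene name, up to 5 DEGs of each of the 37 lists, up to 10 genes in each direction that differed from both groups, the first 3 markers of 12 cell types and a few genes set by name (here Cyp2e1, Dpt, Gbp3, H2afx, Ifit3, Mapk8, Mapk9 and Sgk1). The members and the lists were chosen with earlier results of these data known. Chosen outside this rule after their values were seen were Bcl3, Cish, Cxcl12, Cyp2a5, Cyp3a11, Cyp8b1, Fasn, Fga, Fgb, Fgg, Fkbp5, Fosl1, Gclc, Glul, Herpud1, Hspa1a, Hspa1b, Ier3, Ifit2, Il6ra, Klf9, Lrg1, Mdm2, Mir122, Nr4a1, Oat, Orm2, Pdgfrb, Por, Ppp1r3c, Retnlg, Serpina3n, Tsc22d3, Vcam1 and Zbtb16, and the markers Camp, Cd44, Dpp4, Eng, Itgb1, Pi16, Postn and Prrx1. On simulated data for AMSC against NC with 9699 genes, limma found 75 of 100 genes changed 2-fold and 100 of 100 changed 4-fold, with 16 false calls at the adjusted p alone. Every simulated gene had the same dispersion (extra spread between livers), and no simulated library stood apart as NC replicate 3 did. These rates need not hold for the real livers. Alternatives were a pseudocount of 0.1, other filters, quantile normalization, 1 fit of all 9 libraries, no variance trend, voom on the recovered reads, a test of protein-coding genes alone, a block for the replicate number and leaving out each replicate. Scaling to total reads on genes and leaving out each vehicle replicate were added after seeing the data. Promoter windows came from RefSeq (GRCm38.p6). Tables were handled in pandas 2.3.3 and numpy 2.4.6 under Python 3.11.15, and plots drawn in matplotlib 3.10.9.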

Additional observations from a re-analysis of the deposited data

How the results depend on the processing

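The 380 higher DEGs became 577 with voom on recovered reads. The 203 lower DEGs became 362 with a pseudocount of 0.1, 391 with voom, 129 among genes whose mean reached 5 FPKM and 343 with scaling to total reads on genes. The 2521 genes past the adjusted p became 1509 under that filter (fewer genes tested) and ranged from 1678 to 2356 when 1 NC or AMSC replicate was left out. The 8139 genes with intervals within 1 log2 unit of 0 became 6937 with a pseudocount of 0.1 and 6794 with voom. They became 22426 with all 24849 genes above 0 tested and 4066 of 4935 under the 5 FPKM filter. The 38 genes that differed from both groups became 3 with all genes above 0 tested and 69 with voom, and ranged from 18 to 43 when 1 replicate was left out. The 374 DEGs shared with the vehicle group became 570 with a pseudocount of 0.1 and 606 with voom. The causes of these shifts were not tested. With the replicate number as a block, 846 genes passed the adjusted p, 58 differed from both groups and 414 were higher and 197 lower DEGs. Replicate numbers 2 and 3 alone are shared by the NC and AMSC groups, so the group difference in that fit came from these replicates alone. The deviations of same-numbered livers from their group means correlated at -0.20 and -0.31 across genes. With 3 livers per group such deviations are tied to each other, so these correlations cannot decide whether the numbers pair the livers. The title of NC replicate 3 numbers that liver NC-1 under another date. The number it shares with AMSC replicate 3 is thus that of its column label and not of its title. Of 123 named DEGs, 99 kept their call under all 16 alternatives, 15 lost it with all genes above 0 tested and 13 lost it when some replicate was left out. Of 42 named genes called against the vehicle group, 20 lost that call when some replicate was left out. The log2 fold change of Cyp3a11, 0.13 and no DEG, was -0.20 with quantile normalization. With scaling to total reads on genes, 4 in place of 2 genes of bile acid synthesis fell, 12 in place of 6 endoplasmic reticulum chaperones fell, and 2 in place of 5 clock genes and 5 in place of 8 genes of hypoxia, glycolysis and lipid droplets rose. The median tested gene held 344.5 reads per library, and the median 95% interval spanned 0.607 log2 units. The share of that width that comes from depth was not tested.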

Other observations

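Of the 583 DEGs, 520 were annotated as protein coding and 61 carried predicted-gene or clone symbols. Gm43305, a processed transcript, was higher than in both groups, at 8.79, 15.8 and 2.90 FPKM in NC, 2.91, 1.53 and 3.53 FPKM in vehicle and 57.2, 203 and 94.8 FPKM in AMSC livers. The Mup pseudogene Mup-ps20 was at 2.16, 1.78 and 1.49, 2.30, 2.90 and 4.40 and 0.486, 0 and 0.342 FPKM in the same order, and reads could be shared with other Mup genes. The hairpin gene Mir122 was at 0.908, 9.64 and 1.76, 0, 1.22 and 3.38 and 14.3, 10.49 and 13.1 FPKM, on a short gene for which few reads decide the value. The call of Mir122 against control was lost without NC replicate 1 or 3 and without any single AMSC replicate, and that of Mup-ps20 without AMSC replicate 3. Mir122 was chosen after its values were seen. Insig1, a sterol sensor, was at 129.7, 128 and 52.4 FPKM in NC, 80.1, 118 and 115 FPKM in vehicle and 47.7, 28.7 and 51.8 FPKM in AMSC livers, and its call against control (-1.19, limma adjusted p = 0.045) was lost when any replicate other than NC replicate 3 was left out.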
